A study of Mus musculus with 60 samples.

Results

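The constant-region genes of the antibody heavy chains, the kappa light chain constant gene and the joining chain gene were followed across 15 tissues of the mouse. The 10 genes were the rows of the count table with the symbols Ighm, Ighd, Igha, Ighg1, Ighg2b, Ighg2c, Ighg3, Ighe, Igkc and Jchain, out of 54532 genes, and membership was set by symbol. Whole-tissue RNA came from female C57BL6/J mice of 6 weeks, whose vessels were flushed by perfusion before dissection, and the labels name no genotype, treatment or infection. Every tissue had 4 libraries: blood, bone marrow, thymus, spleen, mesenteric and inguinal lymph node, small intestine, colon, lung, skin, liver, kidney, heart, brain and female reproductive tract. Blood is mononuclear cells by its title and whole blood by its tissue label. The assay sequenced the 3′ ends of polyadenylated RNA, so a level is given in CPM (counts scaled to a common library size by TMM) and was not divided by gene length.

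An antibody consists of heavy and light chains, and the constant region of the heavy chain sets its isotype. Naive B cells splice the same rearranged variable region to the constant exons of Ighm and Ighd and carry IgM and IgD on their surface. After activation, class switch recombination joins the variable region to a downstream constant gene, and plasma cells secrete IgG, IgE or IgA. The joining chain links IgA dimers and IgM pentamers, and the polymeric immunoglobulin receptor Pigr carries these across epithelia into the gut lumen.

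In GENCODE M21 (GRCm38/mm10), the heavy chain genes lay on the minus strand of chromosome 12. In the order of transcription these were Ighm (113418558 to 113422730), Ighd (113406604 to 113416324), Ighg3 (113356224 to 113361232), Ighg1 (113325240 to 113330523), Ighg2b (113302965 to 113307933), Ighg2c (113285325 to 113288932), Ighe (113269260 to 113273248) and Igha (113254830 to 113260236). Igkc lay on the plus strand of chromosome 6 (70726435 to 70726966) and Jchain on the minus strand of chromosome 5 (88519809 to 88527891). The ends of the secreted coding sequences are shown because the isotypes counted here are told apart near the 3′ end, and because the joining chain attaches to a cysteine of the tailpiece of IgM and IgA. The last 60 coding bases before the stop codon of the annotated secreted transcripts of the isotypes that bind the joining chain follow, 5′ to 3′ on the minus strand, with the codon of the penultimate residue, a cysteine, in capitals. The lines give Ighm at chr12:113420870-113420929 and Igha at chr12:113258771-113258830.
Ighm: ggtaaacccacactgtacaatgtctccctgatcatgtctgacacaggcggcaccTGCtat
Igha: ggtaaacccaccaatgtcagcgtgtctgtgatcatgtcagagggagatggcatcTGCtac

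The Ighm and Igha ends had 41 of 60 bases in common and shared that cysteine codon. The corresponding ends of the 4 IgG genes are shown because reads of related genes can be hard to tell apart, with the bases that differ from Ighg1 in capitals, for Ighg1 (chr12:113328979-113329038), Ighg2b (chr12:113306392-113306451), Ighg2c (chr12:113287392-113287451) and Ighg3 (chr12:113359668-113359727), all on the minus strand.
Ighg1: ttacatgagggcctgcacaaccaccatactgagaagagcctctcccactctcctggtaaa
Ighg2b: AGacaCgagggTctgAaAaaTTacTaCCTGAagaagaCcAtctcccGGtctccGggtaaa
Ighg2c: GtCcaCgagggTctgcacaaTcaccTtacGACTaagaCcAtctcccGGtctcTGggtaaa
Ighg3: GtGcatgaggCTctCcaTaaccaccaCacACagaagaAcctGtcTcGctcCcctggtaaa

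From Ighg1, the ends of Ighg2b, Ighg2c and Ighg3 differed at 19, 16 and 14 of the 60 bases. Over aligned transcripts, Ighg2b and Ighg2c were the closest pair (86.4% identity), and the other IgG pairs ran from 74.2% to 76.8%. None of the 351 stretches of 50 bases in the last 400 bases of any of these 6 transcripts occurred in another of them, although shorter or mismatched reads could still be shared. The annotation also placed Gm30211, a long noncoding RNA gene, over Igkc on the same strand, with 0 exon bases shared.

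Library totals ran from 353605 to 5211133 counts with a median of 2649670. Of 45 markers of the labelled tissues, 42 were highest in the tissue they mark. The exceptions were Ccr7 in both lymph nodes, highest in blood, and Ccl19 in the mesenteric node, highest in the inguinal node. Libraries that stood apart were brain replicate 3 and liver replicate 4, which held reads of intestinal genes, and female reproductive tract replicates 3 and 4. The latter were shallow for their tissue (353605 and 1028920 counts, against 2851576 and 3134683 in replicates 1 and 2). All colon libraries, at 750212 to 951914 counts, were shallower than that replicate 4. Colon and lung libraries held 0.736% to 0.928% and 0.233% to 0.292% mitochondrial ribosomal RNA, against 4.33% to 40.6% in the other tissues.

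IgM transcripts were most abundant in spleen and blood. Ighm was at 5198, 5483, 4786 and 3886 CPM in the 4 spleen libraries (4838 ± 697, SD, n = 4) and at 3198, 3239, 3395 and 3076 CPM in blood (3227 ± 132). All 4 spleen libraries lay above all 4 blood libraries, and all blood libraries above those of the inguinal node (1683 ± 297 CPM), the mesenteric node (1476 ± 212 CPM) and bone marrow (1237 ± 202 CPM), which overlapped one another. Thymus came next at 564, 610, 520 and 443 CPM. Lung followed at 251 ± 112 CPM, with replicate 2 at 91.2 CPM below the other lung libraries. The 8 remaining tissues, gut included, ran from 4.62 CPM in heart replicate 2 to 73.2 CPM in small intestine replicate 3. In tissue RNA, fewer cells of a type and less RNA per cell cannot be told apart.

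IgD transcripts had another order, with blood above every lymphoid organ. In blood, Ighd was at 1329, 1339, 1222 and 1302 CPM (1298 ± 53.2), above the inguinal node (926, 1004, 852 and 685 CPM), spleen (737, 694, 699 and 732 CPM) and the mesenteric node (598, 444, 436 and 478 CPM). The spleen and inguinal node libraries overlapped, and all spleen libraries lay above those of the mesenteric node. Bone marrow held 124 ± 19.2 CPM. Relative to Ighm, the count of Ighd was highest in the inguinal node (41.1 to 60.5 reads per 100 Ighm reads), then in blood (35.98 to 42.3) and the mesenteric node (28.2 to 36.2). These ratios were 12.7 to 18.8 in spleen, 8.11 to 13.7 in bone marrow and 1.98 to 5.90 in thymus.

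IgA transcripts were a gut signal. Igha was at 2893, 4223, 3461 and 2855 CPM in small intestine (3358 ± 640) and at 2180, 3253, 2943 and 3816 CPM in colon (3048 ± 682). The libraries of these gut segments overlapped, and each lay above every library of the mesenteric node, which drains the intestine (600, 1106, 471 and 493 CPM). Spleen held 250, 244, 78.9 and 217 CPM, with replicate 3 the lowest, and all below the mesenteric node. Bone marrow (110 ± 36.3 CPM) and thymus (73.3 ± 7.22 CPM) overlapped, while the inguinal node held only 28.1, 65.4, 15.1 and 8.39 CPM. Blood held 21.1 ± 4.01 CPM.

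Single libraries set the Igha mean of 3 other tissues. Brain replicate 3 was at 76.1 CPM while the other brain libraries ran from 0.851 to 1.12 CPM, liver replicate 4 at 55.6 CPM against 2.89 to 8.05 CPM, and lung replicate 1 at 61.5 CPM against 6.95 to 10.6 CPM. In brain replicate 3 all 9 of 9 intestinal epithelial and Paneth cell markers were above the other brain libraries, with none at 0, and their summed level was 682 CPM against 16.7 to 24 CPM. The Paneth cell defensin Defa24 was at 393 CPM there against 4.59 to 8.51 CPM. In liver replicate 4 the same 9 of 9 genes lay above the other liver libraries, and they summed to 576 CPM against 181 to 225 CPM, and Defa24 was at 241 CPM against 12.7 to 27.2 CPM. The part of these genes in the Igha values was not tested.

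The joining chain gene was high both in gut and in spleen. Jchain was at 392, 637, 560 and 325 CPM in small intestine, at 326, 390, 521 and 476 CPM in colon and at 450, 560, 407 and 268 CPM in spleen, and these 3 tissues overlapped. The mesenteric node held 349, 290, 258 and 227 CPM. Its 4 libraries lay above those of the inguinal node (39.1, 98.96, 22.5 and 58.7 CPM), bone marrow (50.9 ± 16.9 CPM) and thymus (43.2 ± 7.40 CPM). Blood held 2.55, 2.21, 4.29 and 1.16 CPM of Jchain, although its Ighm level was the highest after spleen.

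IgG transcripts had their highest tissue means in the mesenteric node or spleen, and libraries of a tissue lay far apart. Ighg1 was at 1817, 62.03, 1154 and 922 CPM in the mesenteric node (989 ± 725), so that replicate 2 stood far below the other 3. The next tissue was spleen (32.1, 70.1, 8.45 and 58.99 CPM), whose replicate 2 lay above that low library. Ighg1 was lower in colon (22.02 ± 13.4 CPM), bone marrow (15.4 ± 7.43 CPM) and the inguinal node (11.8 ± 9.08 CPM), and no read was counted in brain or heart. Ighg2b was at 232, 255, 154 and 200 CPM in the mesenteric node, 242, 153, 58.9 and 75.7 CPM in spleen and 44.5 ± 5.79 CPM in thymus. Its inguinal node libraries were split, with replicates 2 and 4 at 124 and 154 CPM and replicates 1 and 3 at 6.17 and 6.43 CPM.

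Ighg2c, which C57BL/6 mice carry in place of Ighg2a, showed the same split in the inguinal node, at 304 and 195 CPM in replicates 2 and 4 and at 2.79 and 3.46 CPM in replicates 1 and 3. In spleen it was at 225, 476, 41.99 and 73.6 CPM, and in the mesenteric node at 102, 104, 18.6 and 18.4 CPM, so these 3 tissues overlapped. No read of Ighg2c was counted in colon or liver. Ighg3 was at 190, 343, 137 and 183 CPM in the mesenteric node and at 159, 211, 66.1 and 66.1 CPM in spleen, which overlapped, and both tissues lay above the inguinal node (13.4, 36.9, 12.4 and 14.9 CPM). Brain, heart, kidney and skin had no Ighg3 read.

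Ighe, the constant gene of IgE, was counted almost entirely in the mesenteric node. Its 4 libraries there held 18.9, 0.363, 13 and 12.3 CPM, 169 reads in all, and the low library was replicate 2, which was also the low library for Ighg1. Thymus held 13 reads, the inguinal node 9, and spleen and female reproductive tract 1 each. The other 10 tissues had none, where a count of 0 allows up to 0.868 CPM in colon and 0.289 CPM in small intestine (3 reads over 4 libraries, counting error only).

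Igkc, which pairs with every heavy chain isotype, was abundant in each tissue with abundant heavy chain RNA. It was at 7235, 7883, 6108 and 5328 CPM in spleen, 4239 ± 882 CPM in the mesenteric node, 3827 ± 148 CPM in blood, 3700 ± 514 CPM in small intestine, 3151 ± 830 CPM in colon and 2779 ± 806 CPM in the inguinal node. The inguinal node, bone marrow (1222 ± 282 CPM) and thymus (519 ± 129.6 CPM) formed 3 steps whose libraries did not overlap. Among light chain reads, those of the lambda constant genes Iglc1 to Iglc4 took 19.8% to 22.5% in blood, 16.99% to 23.6% in the inguinal node, 13.4% to 15.98% in spleen and 4.58% to 9.11% in colon. In small intestine the lambda share ran from 6.13% to 20.5%, with replicates 3 and 4 at 11.2% and 6.13%.

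**Figure D1:**
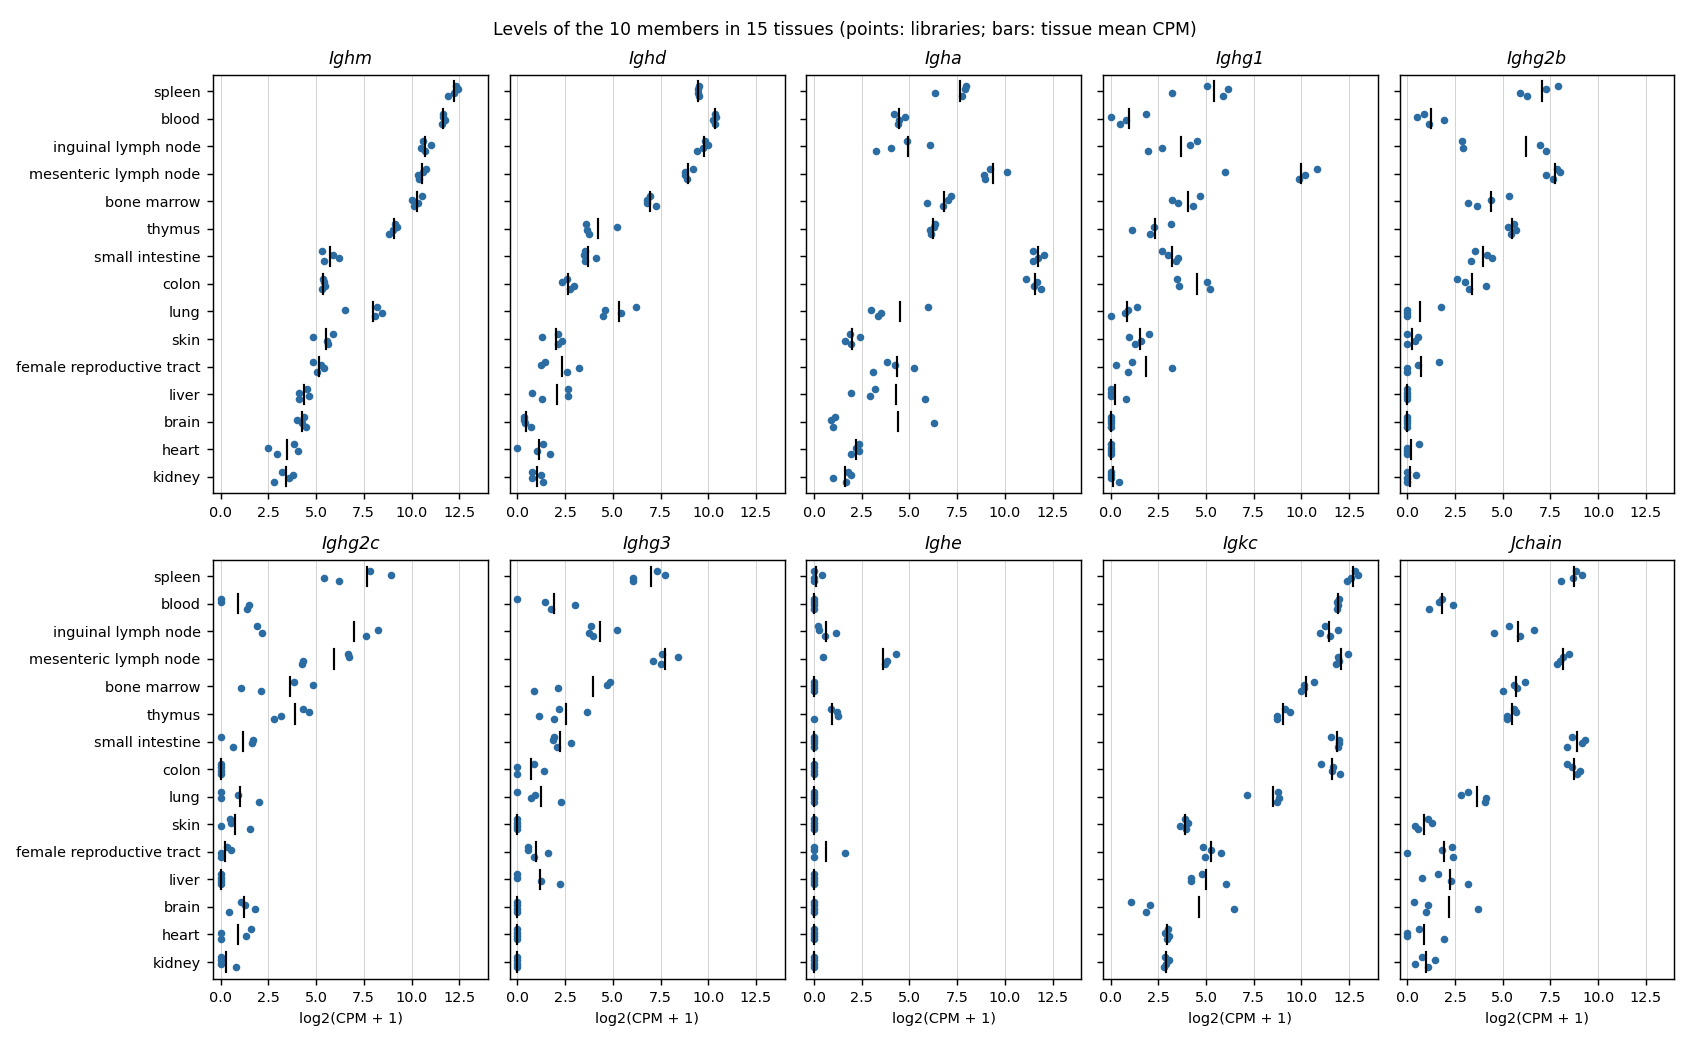
Level of each of the 10 genes in every library (points, log2 of CPM plus 1) by tissue, with the tissue mean as a bar. Ighm and Ighd are high in spleen, blood and lymph nodes, Igha in gut, and Jchain in gut and spleen. Single points far from their group appear for Igha in brain, liver and lung and for Ighg1 and Ighe in the mesenteric lymph node.

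The order of tissues was tested between neighbours for each gene with a two-sided exact permutation test, 125 tests in all. In 23 of them the 4 libraries of the higher tissue did not overlap those of the lower, with an exact p = 0.0286, the smallest that 4 against 4 libraries allow, and an adjusted p of 0.155. None of the 125 passed an adjusted p of 0.05. Of the 23, Ighm and Ighd had 6 each, Igkc 4, Igha 3, Jchain 2 and Ighg2b and Ighg3 1 each, while no neighbouring tissues of Ighg1, Ighg2c or Ighe were separate. The same count was not made for all genes, and the tissues were ordered by the values tested. The number 23 therefore does not set these genes apart from others.

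Each tissue was also set against the mean of the other 14 in 1 fit of all libraries, where 9 of the 10 genes passed the filter on low counts and Ighe did not. A call here and between pairs of tissues needed a Benjamini-Hochberg adjusted p under 0.05 in the quasi-likelihood test of edgeR and a log2 fold change beyond 1 in either direction. Of 135 combinations of gene and tissue, 53 were called higher, where 19.4% of all genes and tissues were, and 35 lower, where 11.2% were. All 9 genes were called higher in spleen, mesenteric node and bone marrow, where 17.8%, 17.2% and 17.6% of all genes were, and 8 in the inguinal node (17.1%). Small intestine (19.9%) and thymus (18.9%) had 5 each, colon (17.7%) had 4, blood (18.1%) had 3 (Ighm, Ighd and Igkc) and lung (16.8%) had 1 (Ighd). Igha led in small intestine (log2 fold change 6.55 ± 0.26, SE, adjusted p = 8.8e-31) and colon (6.40 ± 0.26, adjusted p = 1.04e-29), Ighd in blood (6.45 ± 0.12, adjusted p = 9.2e-47) and Ighg1 in the mesenteric node (9.30 ± 0.28, adjusted p = 3.55e-33). The size of the Ighg1 value is uncertain, since tissues without a read enter the mean it is set against. Its SE comes from the fit of all libraries, while the mesenteric libraries ran from 62.03 to 1817 CPM.

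Ighm, Ighd, Igha, Igkc and Jchain were called lower in each of brain, heart, kidney, liver, skin and female reproductive tract, where 16.1%, 12.9%, 9.51%, 16.7%, 6.38% and 5.31% of all genes were. In small intestine 1 gene was called lower (8.50% of all genes were), and in colon and blood 2 each (14.4% and 17.8%). Gut had less IgM transcript than the mean of the other tissues, with Ighm at a log2 fold change of -1.65 ± 0.20 in small intestine and -2.07 ± 0.22 in colon, where Ighd was also lower (-2.003 ± 0.38). Blood was called lower for Igha (-1.26 ± 0.53) and Jchain (-2.88 ± 0.52). No IgG gene was called lower in any tissue, which does not show equal levels. Each IgG gene had tissues without a read, and these enter the mean of the other tissues on the log scale. That mean then has no lower bound, so the edgeR contrast could hardly call an IgG gene lower. The SE could be very large, as for Ighg1 in brain (0 reads, log2 fold change -6.05, SE 35258) and in blood (6 reads, -1.84, SE 346). Some of the calls against the mean of the other tissues rested on all libraries being present. With the 15 libraries of 1 replicate number left out, Igha lost its call in blood for each of the 4 numbers (-1.02 to -1.30), in brain without number 1, 2 or 4, in liver without 1, 2 or 3 and in female reproductive tract without 1, and Ighd in lung without 1 (0.73). Ighg2c in bone marrow lost it without 1 or 2 (2.48 and 1.87), Ighg1 in small intestine without 3 or 4 (1.62 and 2.03) and Ighg3 in thymus without 1, 2 or 4 (1.53, 0.54 and 1.71).

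As shares of the heavy chain constant reads within a library, the tissues had distinct isotype profiles. Shares are of read counts, and libraries with fewer than 50 heavy chain reads were left out, which removed all of heart, 3 of kidney and 1 each of liver and female reproductive tract. In small intestine 97.7%, 97.7%, 96.4% and 97.4% of heavy chain reads were Igha, and in colon 97.3%, 97.5%, 97.4% and 97.8%. In blood, Ighm and Ighd together left 0.592% ± 0.114 (SD, n = 4) for all switched isotypes. Spleen (10.8% ± 4.92), bone marrow (11.1% ± 4.22) and the inguinal node (8.38% ± 6.96) had switched shares that overlapped. Thymus had 20.4% ± 1.16 and the mesenteric node 51.9% ± 3.44.

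The mesenteric node was the only tissue in which Ighm, the IgG genes and Igha each took over 10% of the reads in all 4 libraries. Its 4 IgG genes together took 44.3%, 19.6%, 39.96% and 36.5%, its Igha 11.4%, 28.4%, 12.9% and 13.6%. Replicate 2, the low library for Ighg1, had the lowest IgG and the highest Igha share. In the inguinal node the IgG share was 1.75%, 13.2%, 1.19% and 13.5%, with replicates 2 and 4 high. Thymus, whose heavy chain reads numbered 1267 to 2813 a library, held 9.74% to 11.9% Igha and 9.31% to 10.5% IgG in all 4 libraries.

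In brain replicates 1, 2 and 4, with 61 to 78 heavy chain reads, Ighm took 85.2% to 91.5%. Brain replicate 3 had 78.6% Igha (95% Clopper-Pearson interval 73.6% to 83.1%, 309 reads) and liver replicate 4 had 71.7% (62.1% to 80.0%, 106 reads), where the other liver libraries with 50 reads or more had 22.6% and 18.2%. Intervals cover counting error only, since the labels describe no molecular identifiers. Skin had 78.1% to 86.0% Ighm.

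**Figure D2:**
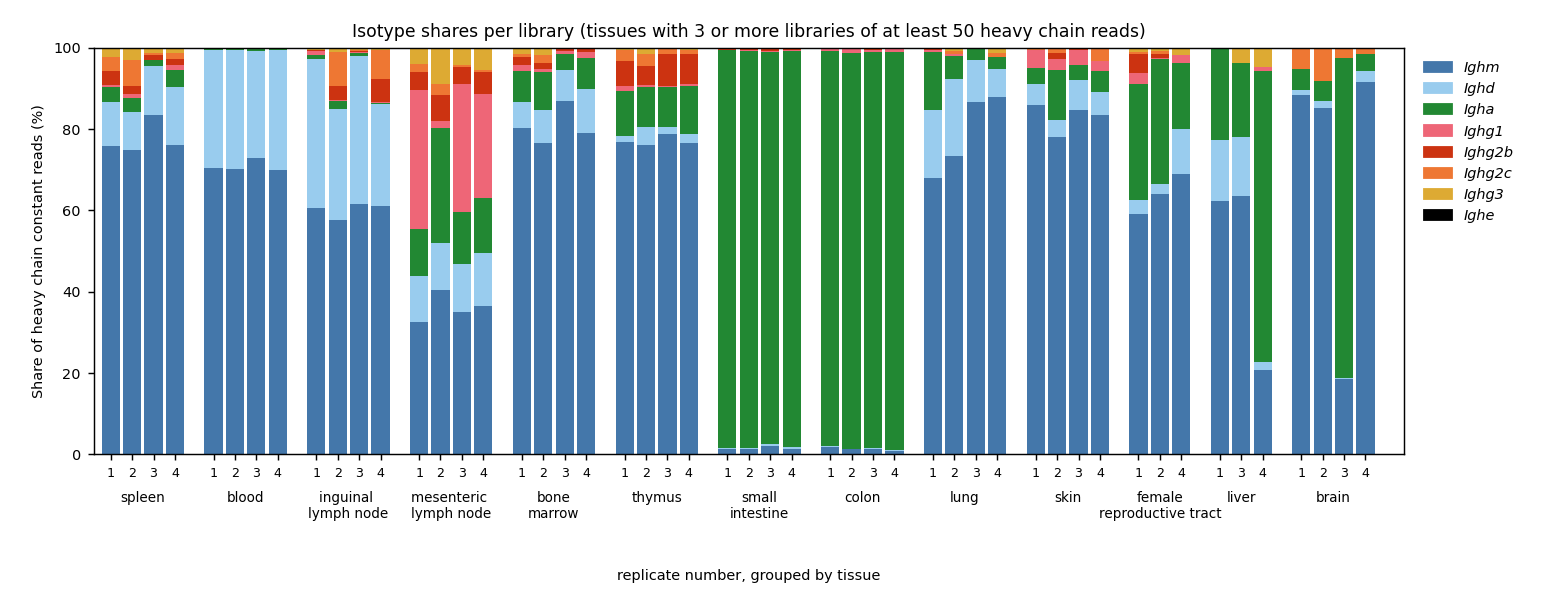
Share of heavy chain constant reads (%) by isotype gene, 1 bar per library, labelled with its replicate number and grouped by tissue; libraries under 50 heavy chain reads and tissues with fewer than 3 remaining libraries are not drawn. Igha fills the bars of small intestine and colon at 96.4% to 97.8%, Ighm and Ighd fill those of blood, and brain replicate 3 and liver replicate 4 stand apart from their groups.

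Light chain and joining chain counts were set against the summed heavy chain counts of the same library. Igkc gave 0.727 to 1.38 reads per heavy chain read in every library of spleen, lymph nodes, blood, bone marrow, gut and lung. It gave 0.629 to 0.848 in thymus, 0.542 to 0.645 in female reproductive tract, 0.473 to 0.889 in liver, 0.420 to 0.552 in kidney and 0.326 to 0.750 in heart, where most libraries had few heavy chain reads. In skin the ratio was 0.202, 0.452, 0.201 and 0.256. It was 0.0513, 0.180 and 0.113 in brain replicates 1, 2 and 4 and 0.906 in brain replicate 3. Those 3 brain libraries held Ighm at 14.7 to 21.3 CPM with Igkc at 1.12 to 3.12 CPM.

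Jchain gave 11.1 to 15.6 reads per 100 heavy chain reads in small intestine and 11.7 to 17.3 in colon, which overlapped. Spleen (5.24 to 7.64), mesenteric node (6.24 to 7.46) and thymus (5.58 to 6.54) also overlapped one another. Bone marrow had 2.22 to 3.85, the inguinal node 0.967 to 2.71 and blood 0.0264 to 0.0923. Blood thus had abundant heavy chain RNA with little joining chain RNA, whereas the ratio of the inguinal node overlapped that of bone marrow.

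**Figure D3:**
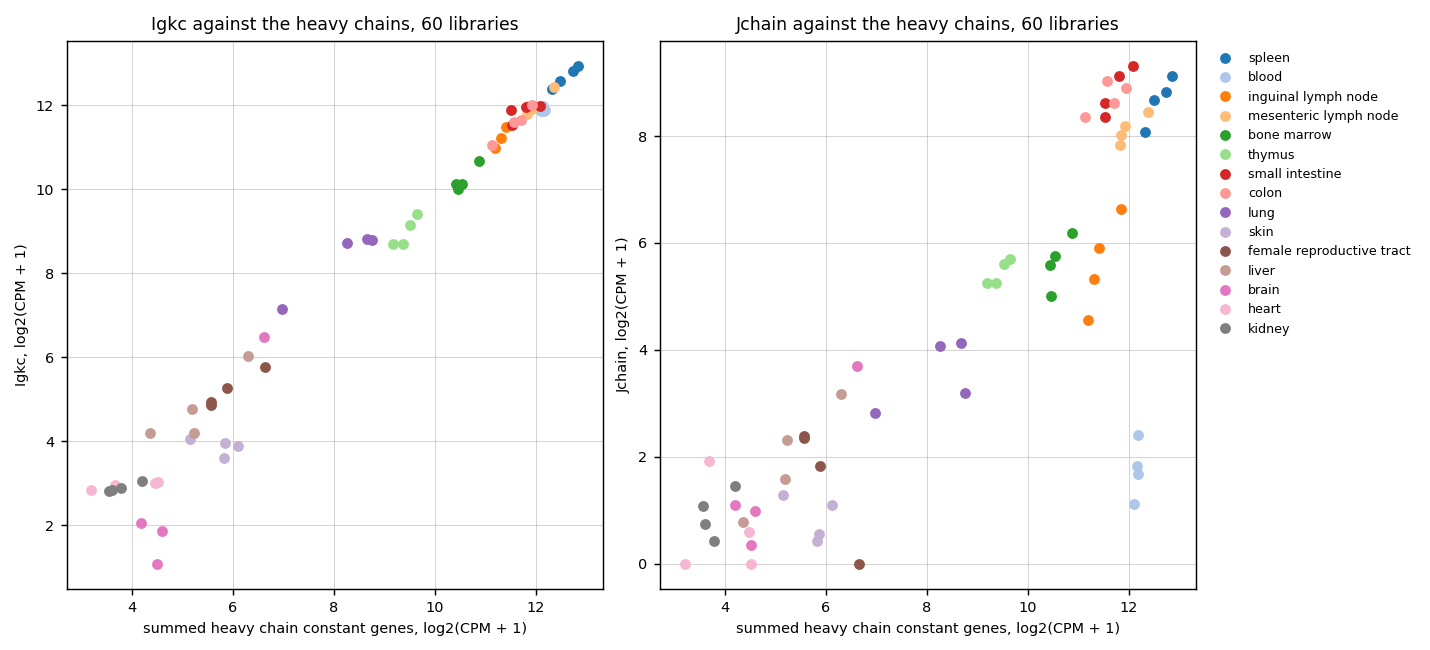
Igkc (left) and Jchain (right) against the summed heavy chain constant genes, both axes log2 of CPM plus 1, 1 point per library coloured by tissue. Igkc is higher where the heavy chains are higher, and brain replicates 1, 2 and 4 have the lowest Igkc per heavy chain read (0.0513 to 0.180), whereas Jchain in blood lies at 1.16 to 4.29 CPM although its heavy chain level is among the highest.

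Pairs of tissues were compared with edgeR on the 8 libraries of each pair, with the same thresholds. The pairs share libraries of spleen, the lymph nodes and small intestine, so they are not independent of each other. Isotype shares were compared by two-sided exact permutation tests, with Benjamini-Hochberg adjustment over 24 tests. In these, an exact p = 0.0286 is the smallest value possible and gave an adjusted p of 0.0457 wherever the libraries did not overlap. With Ighd left out of the denominator, 18 tests remained, the same smallest p gave an adjusted p of 0.0571, and no share difference passed 0.05.

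The mesenteric node had more switched isotypes than the inguinal node. Of 9 genes tested, 4 were called higher in the mesenteric node, where 5.45% of all 13164 genes were, and 0 lower, where 1.78% were. Ighg1 was higher by a log2 fold change of 6.42 ± 0.92 (SE, adjusted p = 0.000732), Igha by 4.59 ± 0.55 (0.000311), Ighg3 by 3.55 ± 0.38 (0.000203) and Jchain by 2.44 ± 0.35 (0.000732), all by the quasi-likelihood test of edgeR. Without inguinal node replicate 2, the highest there, the Igha value was 5.34. Ighm (-0.10 ± 0.14, adjusted p = 0.604), Ighg2c (-0.997 ± 1.09, 0.509) and Ighg2b (1.63 ± 0.78, 0.13; called with no filter on low counts, at 1.57 and an adjusted p of 0.00188) were not called, nor were Ighd (-0.73 ± 0.13, 0.00223) and Igkc (0.70 ± 0.19, 0.018), whose changes were below the fold threshold. As shares, Igha was 15.6 percentage points higher and IgG 27.7 points higher in the mesenteric node, Ighm 24.04 and Ighd 19.5 points lower, each with no overlap between the nodes (exact permutation p = 0.0286, adjusted 0.0457).

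Among other genes in the same pair, 4 of 8 tested genes of class switching and the germinal centre were higher in the mesenteric node and none lower (median log2 fold change 0.91, against 0.02 for all genes). Among these were Mef2b (2.12 ± 0.38), Exo1 (1.35 ± 0.29) and Gcsam (1.27 ± 0.18). Of 11 plasma cell genes and 11 follicular B cell genes tested, 0 were called in either direction. Madcam1, the mucosal vascular addressin, was higher in the mesenteric node (2.40 ± 0.21), the 1 gene of 11 for recruitment and survival of antibody-secreting cells to be so, and 2 were lower, among them the survival factor Tnfsf13b (-1.48 ± 0.28). Of 6 tested antibody transport and Fc receptor genes only the neonatal Fc receptor gene Fcgrt was called, and was higher (1.15 ± 0.13). Of 6 hepatocyte markers 2 were tested and both were higher there, Cyp2e1 (3.32 ± 0.99) and Alb (9.80 against 2.03 CPM), and 2 of 6 fibroblast genes were higher. Mitochondrial ribosomal RNA took 11.3% to 16.1% of counts in the mesenteric and 4.33% to 7.66% in the inguinal libraries, and Malat1, a nuclear RNA, 0.815% to 0.888% and 0.485% to 0.635%. The part of other cells and of these RNAs in the node differences was not tested.

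Small intestine and colon did not differ detectably in IgA. Of 7 genes tested, 1 was called higher in small intestine (13.5% of all 10773 genes were) and 1 lower (12.2% were). Igha differed by a log2 fold change of -0.0011 ± 0.17 (edgeR, adjusted p = 0.996), Jchain by 0.02 ± 0.19 (0.928) and Igkc by 0.09 ± 0.17 (0.677). The Igha share differed by -0.144 percentage points, with overlapping libraries (exact permutation p = 0.8286, adjusted 0.865). Ighg1 was lower in small intestine (5.52, 6.95, 10.4 and 9.74 CPM) than in colon (10.1, 31.8, 10.9 and 35.3 CPM), at -1.52 ± 0.39 (edgeR, adjusted p = 0.00318), and the 2 sets of libraries overlapped, since small intestine replicate 3 lay above colon replicate 1.

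Ighd was higher in small intestine (10.6, 10.4, 16.1 and 10.8 CPM) than in colon (5.07, 4.11, 6.69 and 5.72 CPM), without overlap, at 1.02 ± 0.32 (edgeR, adjusted p = 0.0128). That value lay just past the fold threshold and was 0.62 with library totals in place of TMM. It was 0.97 without colon replicate 1 and 0.93 without colon replicate 2, and Ighd no longer passed the filter when any 1 library of small intestine was left out. As a share of heavy chain reads Ighd was 0.354% against 0.179% (exact permutation p = 0.0286, adjusted 0.0457). Beside these differences, small intestine libraries held 7.52% to 9.59% mitochondrial ribosomal RNA and colon libraries 0.736% to 0.928%. Malat1 took 0.131% to 0.170% in small intestine and 0.0151% to 0.0218% in colon. The part of these RNAs in the differences was not tested.

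Among genes for the recruitment of antibody-secreting cells, 2 of 8 tested were higher and 2 lower in small intestine than in colon. The chemokine Ccl25 was at 774 against 8.43 CPM (6.38 ± 0.17), and its receptor Ccr9 at 11.4 CPM against no read in colon, while the chemokines Ccl28 (17.3 against 39.4 CPM, -1.32 ± 0.23) and Cxcl12 (-1.39 ± 0.18) were lower. Pigr was at 1809 and 1504 CPM and was not called. Of 8 plasma cell genes tested 1 was called, the transcription factor Irf4, lower in small intestine (-1.12 ± 0.35). The lambda gene Iglc3 was higher (3.47 ± 0.52), and 1 of 2 tested follicular B cell genes, Cd79b (1.66 ± 0.34).

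Against its draining node, small intestine had more IgA and less of the other isotypes. Of 9 genes tested, 1 was called higher in small intestine (23.1% of 13205 genes were) and 6 lower (22.5% were). Igha was higher at 2.33 ± 0.25 (edgeR, adjusted p = 1.26e-06), and Ighg1 (-6.89 ± 0.80), Ighg3 (-5.79 ± 0.35), Ighg2c (-5.46 ± 0.84), Ighd (-5.32 ± 0.17), Ighm (-4.79 ± 0.20) and Ighg2b (-3.82 ± 0.22) were lower. Jchain (0.78 ± 0.19, adjusted p = 0.00208) was below the fold threshold, and Igkc (-0.19 ± 0.16, adjusted p = 0.292) was not called. The Igha share was 80.8 percentage points higher in the intestine (exact permutation p = 0.0286, adjusted 0.0457).

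All 11 of 11 follicular B cell genes were lower in small intestine than in the mesenteric node (median log2 fold change -4.85, against 0.01 for all genes), with Cr2 (-5.40 ± 0.18), Ms4a1 (-5.24 ± 0.25), Pax5 (-5.07 ± 0.19) and Blk (-4.97 ± 0.28) the furthest. The plasma cell list was mixed, with 3 of 11 higher and 5 lower. Irf4 (-3.81 ± 0.33), Pou2af1 (-3.36 ± 0.20) and Slamf7 (-3.35 ± 0.23) were lower, and Sdc1, a plasma cell surface proteoglycan that epithelium also expresses, was higher (87.9 against 8.66 CPM, 3.34 ± 0.14). Of 6 antibody transport and Fc receptor genes tested 1 was higher and 4 lower, Pigr being at 1809 CPM in small intestine and 1.59 CPM in the node (10.04 ± 0.33) and the IgM receptor gene Fcmr at 5.94 and 199 CPM (-5.01 ± 0.21). All 9 intestinal epithelial markers were higher in the intestine, and all 8 T cell genes were lower (median -3.66), as were 5 of 9 class switching and germinal centre genes and 8 of 11 genes for recruitment and survival of antibody-secreting cells. The part of these other cells in the antibody gene differences was not tested.

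Spleen exceeded bone marrow for most genes. Of 9 tested, 0 were called higher in bone marrow (14.8% of 12238 genes were) and 8 lower (16.2% were). The furthest apart were Ighg2c (-4.11 ± 0.58), Ighg3 (-3.04 ± 0.40) and Jchain (-2.96 ± 0.17). Leaving out bone marrow replicate 2 or spleen replicate 2 moved Ighg2c to -5.03 or -3.26. Ighg1 was at -1.35 ± 0.37 (edgeR, adjusted p = 0.00227) and was no longer called without spleen replicate 2 (-0.99) or with the DESeq2 Wald test (adjusted p = 0.0683). Igha was the exception, at -0.76 ± 0.22 (edgeR, adjusted p = 0.00384), and it was called without spleen replicate 3, the lowest in that tissue (-1.04), and with library totals (-1.27). The isotype shares of these tissues overlapped for Ighm, Ighd, Igha and IgG (exact permutation adjusted p from 0.0807 to 0.392).

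In the same pair 10 of 11 follicular B cell genes were lower in bone marrow (median -1.88, against -0.03 for all genes), led by the complement receptor gene Cr2 (25.9 against 591 CPM, -4.42 ± 0.09), Fcer2a (-2.86 ± 0.14) and Cd22 (-2.497 ± 0.09). B cell progenitor genes went the other way, with 5 of 7 higher in bone marrow, among them Igll1 (8.75 ± 0.41), Rag1 (6.71 ± 0.24), Vpreb1 (6.14 ± 0.34) and Dntt (3.78 ± 0.31). Of 11 plasma cell genes, 3 were lower in bone marrow, namely Prdm1 (-2.28 ± 0.36), Derl3 (-2.14 ± 0.29) and Mzb1 (-1.87 ± 0.10), and none higher. All 6 neutrophil precursor genes were higher and all 8 T cell genes lower in bone marrow. The part of these other cells in the lower antibody levels was not tested.

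Blood had much lower levels of the switched isotypes and the joining chain than spleen. Of 9 genes tested, 0 were called higher in blood (8.0% of 12157 genes were) and 6 lower (13.9% were): Ighg2c (-7.57 ± 0.92), Jchain (-7.30 ± 0.28), Ighg2b (-6.43 ± 0.57), Ighg1 (-5.84 ± 0.81), Ighg3 (-5.19 ± 0.49) and Igha (-3.19 ± 0.29). In blood the 4 IgG genes had 6 to 30 reads each over all 4 libraries. These values moved when a library was left out, Ighg3 to -6.15 without blood replicate 3, Ighg2b to -7.18 without the same library, Ighg1 to -6.58 without blood replicate 1 and Ighg2c to -6.72 without spleen replicate 2. Ighm (-0.57 ± 0.09), Igkc (-0.78 ± 0.10) and Ighd (0.88 ± 0.07) differed at adjusted p of 3.48e-05, 3.03e-06 and 7.2e-09 (edgeR) but stayed below the fold threshold. The Ighd share was 28.5% ± 1.52 in blood and 11.7% ± 2.08 in spleen (exact permutation p = 0.0286, adjusted 0.0457).

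Plasma cell genes were lower in blood than in spleen for 4 of 11 tested and higher for none (median -0.69, against -0.05 for all genes). These were Derl3 (-3.27 ± 0.36), Slamf7 (-1.36 ± 0.12), Ell2, an elongation factor that favours the secreted form of heavy chain mRNA (-1.20 ± 0.17), and Xbp1, a regulator of secretion (-1.03 ± 0.10). Of 11 follicular B cell genes, 1 was higher and 1 lower. The IgE receptor gene Fcer2a was higher in blood (361 against 126 CPM, 1.54 ± 0.11). All 5 tested fibroblast genes were lower in blood, and none of 8 T cell genes was called.

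Spleen exceeded the inguinal node for 6 of 9 genes tested (6.60% of 13130 genes were called higher) and was below it for 0 (5.29% were called lower). Jchain (3.02 ± 0.34), Igha (2.81 ± 0.47), Ighg3 (2.77 ± 0.41), Ighg1 (1.83 ± 0.55), Ighm (1.60 ± 0.12) and Igkc (1.33 ± 0.17) were higher in spleen, with edgeR adjusted p from 5.15e-07 to 0.0154. Ighg1 was no longer called without spleen replicate 2 (1.49, adjusted p = 0.0706) or replicate 4 (1.64, adjusted p = 0.0545), and Igha moved to 3.53 without inguinal node replicate 2. Ighg2b (0.95 ± 0.75) and Ighg2c (0.78 ± 0.99), the genes with split inguinal libraries, and Ighd (-0.20 ± 0.10) were not called. Plasma cell genes were higher in spleen for 4 of 11, namely Derl3 (1.57 ± 0.24), Mzb1 (1.23 ± 0.16), Prdm1 (1.16 ± 0.24) and Ell2 (1.00 ± 0.11), and lower for none (median 0.54, against -0.02 for all genes). Of 8 T cell genes, 7 were lower in spleen, and the part of cell composition in these values was not tested.

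**Figure D4:**
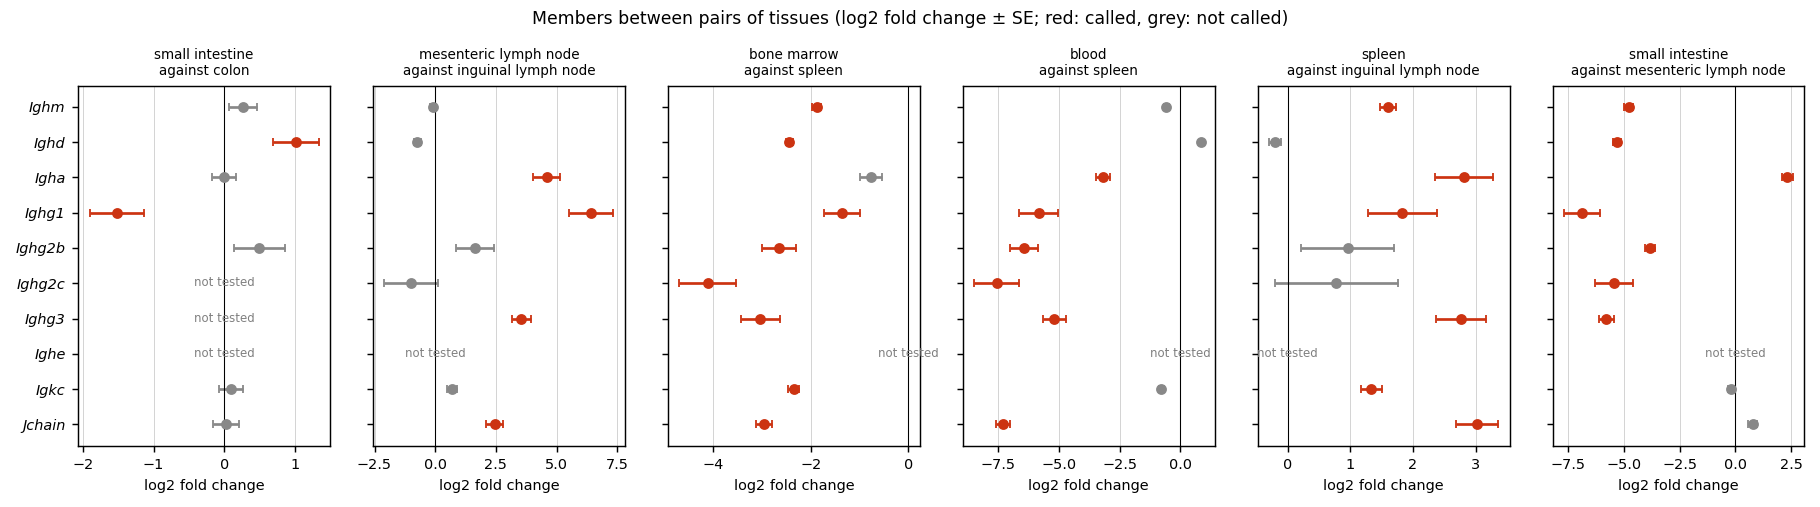
Log2 fold change ± SE of each gene in the 6 pairs of tissues, first-named tissue minus the other, 1 panel per pair with its own horizontal scale; red marks a call (adjusted p below 0.05 and absolute log2 fold change above 1), grey none. The highest positive value is that of Ighg1 in the mesenteric against the inguinal node (6.42), the lowest negative that of Ighg2c in blood against spleen (-7.57), and Igha lies at -0.0011 between small intestine and colon.

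Across tissues, the genes most like each member were named by the Pearson correlation of tissue means of log2(CPM + 1) over 15 tissues, among 13595 other genes that reached 20 CPM in a tissue. Immunoglobulin segments were passed over, which was 4 for Igkc, 6 for Jchain, 2 for Igha and 0 for Ighm and Ighd. Among the genes nearest to Ighd were the B cell genes Cd22, Btla, H2-Ob and Ms4a1 (each r = 0.99), and nearest to Ighm were Cd37 (0.99), Cd53, Wdfy4, Akna and Map4k1 (each 0.98). For Igha these were Adamdec1, a metalloprotease-like gene of gut macrophages and stroma (0.90), Fut4 (0.88), Slc35c1, a GDP-fucose transporter (0.87), Nkx2-3, a transcription factor of gut and spleen mesenchyme (0.87), and Prss30 (0.86).

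For Jchain they were Fut4 and Nkx2-3 (each 0.84), Adamdec1 (0.83), Coro1b (0.82) and Rgs1 (0.80), so 3 of the 5 were also among those of Igha. Igkc had Gpr35 (0.96), Snx20 (0.95), Ctss (0.94), Ripk3 (0.93) and Vasp (0.92). Between members, the highest values were Ighm with Ighd (0.96) and Igha with Jchain (0.93), and Igha with Ighm stood at 0.34. These correlations describe 15 tissue means that share libraries and depth, and they carry no test.

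The labels number the libraries of each tissue 1 to 4 and do not say whether equal numbers mark the same mouse. The plot of switched isotypes by replicate number shows how far single libraries of a tissue lay apart. In bone marrow, Ighg3 was at 28.4, 25.4, 3.35 and 0.844 CPM and Ighg2c at 13.2, 27.5, 1.12 and 3.38 CPM. Both genes were low in replicates 3 and 4 of this tissue, which were named after their values were seen. In spleen, the mesenteric node and thymus, both genes were also lower in replicates 3 and 4 than in replicates 1 and 2. Thymus, for example, held Ighg2c at 18.5, 23.5, 7.98 and 5.94 CPM. The inguinal node did not show this order. This was likewise seen after the fact, and what it rests on was not tested.

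**Figure D5:**
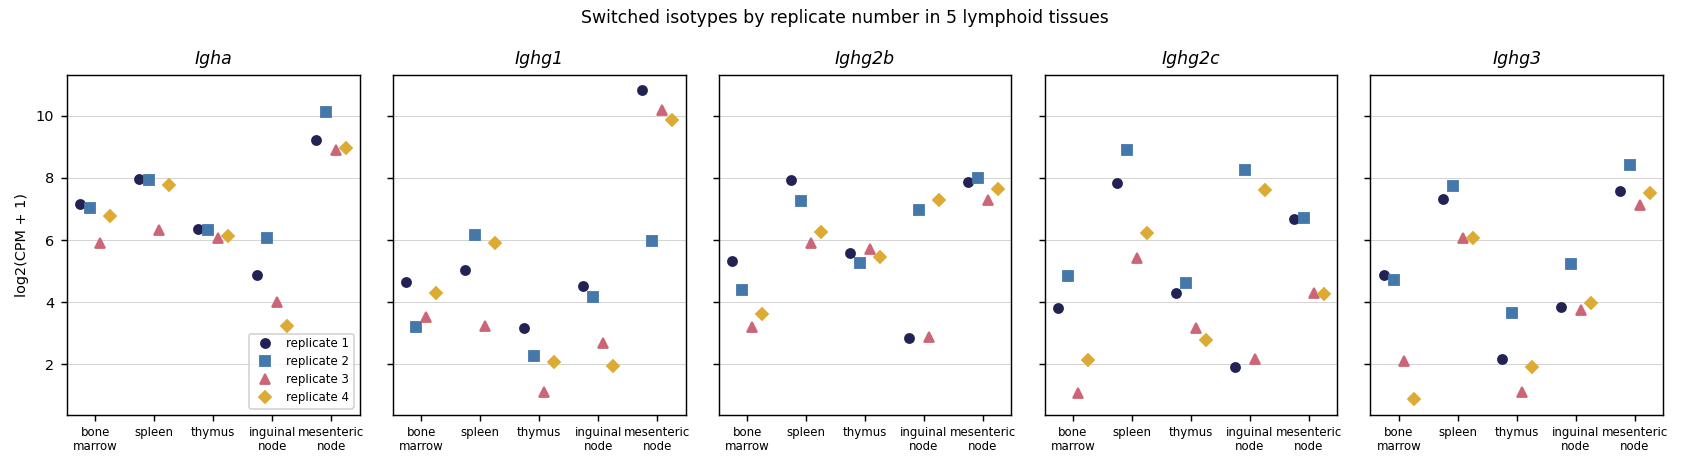
Igha and the 4 IgG genes in 5 lymphoid tissues (log2 of CPM plus 1), 1 symbol per replicate number. Replicates 2 and 4 are the high ones for Ighg2b and Ighg2c in the inguinal node, and replicate 2 is the low one for Ighg1 in the mesenteric node.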

How the data were processed

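Whole-tissue RNA was sequenced from barcoded oligo(dT) primers, which read 3′ ends, in 15 tissues with 4 libraries each. The authors deposited whole-number counts of reads per gene, made with FastQC, STAR and featureCounts on mm10 per the submitters' processing notes; the sources used here do not give versions, strand setting or the treatment of reads that fit several genes. No molecular identifiers are described in the labels, and nothing in them says whether equal replicate numbers are 1 mouse.

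Counts were analysed with edgeR 4.0.16 (R 4.3.3). The filter was filterByExpr (minimum count 10, minimum total 15), libraries were scaled by TMM, and each contrast tested with glmQLFit and glmQLFTest, two-sided, with Benjamini-Hochberg adjustment over all genes tested (18562 in the fit of all libraries). Each pair of tissues was fitted on its own 8 libraries. The SE is the log2 fold change divided by the square root of F. Where a symbol had several rows, the row with most reads was used. Isotype shares and neighbouring tissues were compared by two-sided exact permutation tests in SciPy 1.17.1. P-values measure the spread between these libraries.

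The 10 genes and the lists of other genes, written from general knowledge, were chosen with earlier results of these data known. From a list, up to 4 genes called in a pair were named if their higher tissue reached 5 CPM, by the size of the change; genes most like a member were the 5 with the highest correlation. Some genes these rules name are not reported here. Other genes were named after their values were seen: Defa24, Pigr, and the list members given without a call.

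Alternatives were DESeq2 1.42.0 size factors, library totals, no filter, the DESeq2 Wald test, a replicate block, single libraries left out, 4 libraries that stood apart left out, and other denominators, read minimums and scales for shares. The procedure was also run on simulated data with 200 genes changed, where spread between libraries was set by a dispersion size of 10. For small intestine against colon (8847 genes) it recovered 85% of 3-fold and 100% of 6-fold changes with 6 false calls. For small intestine against the other 14 tissues (12206 genes) it recovered 99% and 100% with 3 false calls. Recovery at the read counts and spread of the 10 antibody genes was not tested. Sequences and positions are from GENCODE M21 (GRCm38).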

Additional observations from a re-analysis of the deposited data

Results flagged for a closer look

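Of 95 groups of 4 libraries with at least 20 reads of a gene, 10 held 1 library whose gap to the nearest of the others exceeded Dixon's 95% critical value for 4 values. Chance marks about 1 in 20 such groups. Brain replicate 3 was the high library for Igha (76.1 CPM, the others 0.851 to 1.12), Igkc (87.7 CPM, the others 1.12 to 3.12) and Jchain (11.9 CPM, the others 0.279 to 1.13), and liver replicate 4 for Igha (55.6 CPM, the others 2.89 to 8.05). In lung, replicate 1 was high for Igha (61.5 CPM, the others 6.95 to 10.6) and replicate 2 low for Igkc (142 CPM, the others 422 to 448). Ighd was high in small intestine replicate 3 (16.1 CPM, the others 10.4 to 10.8) and in thymus replicate 2 (36.04 CPM, the others 11.2 to 12.3). Ighg3 was high in inguinal lymph node replicate 2 (36.9 CPM, the others 12.4 to 14.9), and Igkc in bone marrow replicate 1 (1641 CPM, the others 1021 to 1118). In brain replicate 3 and liver replicate 4 the intestinal epithelial and Paneth cell list summed to 682 and 576 CPM, above 24 and 225 CPM in the highest of the other libraries. The 12 plasma cell genes summed to 129 CPM in brain replicate 3 and 113 to 121 CPM in the other brain libraries. The part of these genes in the high values was not tested.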

How the results depend on the processing

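Of 672 values of single members in the 6 pairs under the alternatives, 661 kept their direction and their side of the thresholds, 7 lost a call and 4 gained one. Ighd between small intestine and colon also lost its call when any library of small intestine was left out. It then failed the filter and had no value, so these losses are not among the 672. The count of members higher in small intestine than in colon was 1, and it was 0 with library totals, 3 with no filter and from 0 to 1 with single libraries left out, since Ighd fell under the filter or the fold threshold. The DESeq2 Wald test called 54 combinations of gene and tissue lower than the mean of the other tissues, where edgeR called 35. The added calls were all of IgG genes, in tissues with 0 to 6 reads of the gene over 4 libraries. For Ighg1 in brain, DESeq2 gave -5.96 with an SE of 1.18 and edgeR -6.05 with an SE of 35258. The edgeR SE is the log2 fold change divided by the square root of F, so it grows without limit as F nears 0 and does not measure spread here. As given above, that contrast could hardly call an IgG gene lower. How DESeq2 came to its calls was not tested. With Ighd left out of the share denominator, the Ighm difference turned to 11.3 percentage points between blood and spleen and to -0.498 between spleen and inguinal node, because the share taken by Ighd then no longer enters. The Igha, Ighm and IgG differences were then 17.4, -47.3 and 29.7 points between the lymph nodes and 78.9, -39.5 and -39.1 between small intestine and mesenteric node, and those of Igha and IgG -2.93 and -8.38 between blood and spleen, each at an adjusted p of 0.0571 in exact permutation tests, over the 18 tests that remained. Igha in bone marrow against spleen gained a call with library totals (-1.27). Ighg2b between the lymph nodes was called with no filter (1.57, adjusted p = 0.00188, edgeR).

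The replicate numbers were not shown to pair libraries. Deviations of same-numbered mesenteric and inguinal libraries correlated at 0.222, -0.0148, 0.113 and 0.209 across genes, with no library closest to its own number. The other pairs gave -0.0405 to 0.0683. Closest to their own number were replicates 1, 2 and 3 in bone marrow against spleen and 1 and 3 in small intestine against colon. The same held for replicate 3 in blood against spleen and 2 in spleen against inguinal node, and for none in small intestine against mesenteric node. These correlations do not decide whether equal numbers mark the same mouse. With the replicate block, Ighg2b was called higher in the mesenteric than the inguinal node (2.49, adjusted p = 0.0171, edgeR), so that 5 members were higher instead of 4, and no other count of members in the 6 pairs changed; the share tests then cannot go below an exact p of 0.125. Ighe did not pass the filter on low counts in any pair. Few heavy chain reads limited the isotype shares of heart, kidney, liver, brain, skin and female reproductive tract, which rest on 16 to 309 such reads a library.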
